A study of Rattus norvegicus with 12 samples.

Results

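Messenger RNA of 45 genes of the Nrf2 programme and of glutathione redox chemistry was followed in rat kidney cells after a fall in the osmolality of their medium. The genes were listed by name and function: Nrf2 with its regulators, its classical targets, and the enzymes that make, use or recycle glutathione and thioredoxin. Of the 45 genes, 44 had a probe set that carried their symbol alone, and Mgst3 did not and is not analysed here. They are 44 of 14506 genes tested.

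Nrf2, encoded by Nfe2l2, is a transcription factor that Keap1 normally holds in the cytoplasm and hands to the proteasome. Oxidants and electrophiles modify cysteines of Keap1, Nrf2 then accumulates, enters the nucleus and binds antioxidant response elements beside genes for quinone reduction, glutathione synthesis, conjugation and iron storage. Cells of the renal inner medulla live at high and changing solute concentrations, and high salt is known to raise reactive oxygen species in such cells.

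The samples were primary cultured cells of the inner medullary collecting duct (IMCD), where the final concentration of urine is adjusted, from the kidneys of male Sprague-Dawley (SD) rats aged 7 weeks. All samples shared 4 days of culture at 640 mOsm/kg. Cells were then cultured at 300 mOsm/kg or left at 640 mOsm/kg, and RNA was taken 48 h or 24 h later. The 4 groups were thus 300 mOsm/kg at 48 h, 640 mOsm/kg at 48 h, 300 mOsm/kg at 24 h and 640 mOsm/kg at 24 h, with 3 samples and 3 arrays each, 12 in all. No sample from before the change of medium was analysed here. The labels leave unsaid whether replicates within a group were distinct animals or cultures, and p-values therefore reflect only how far these samples differ, which could be technical variation. Levels below are log2 values after subtraction of the array's own median over the genes tested, and they compare samples for 1 gene, not genes with each other. RNA came from whole cultures, so that fewer cells of a type and less RNA per cell cannot be told apart.

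As checks of the labels, genes outside the list that are known to follow tonicity were read first. Aqp2, the vasopressin-regulated water channel of the collecting duct, fell by 4.41 on the log2 scale at 300 mOsm/kg at 48 h and by 3.65 at 24 h, with limma's Benjamini-Hochberg adjusted p of 2.9e-06 and 5.6e-05. Akr1b1, the aldose reductase that makes sorbitol, fell by 1.34 at 48 h (adjusted p = 0.00957, limma) and by 1.18 at 24 h (adjusted p = 0.0495, limma, and passed in 10 of 23 alternatives). Slc5a3, the myo-inositol carrier, fell by 2.55 at 48 h (adjusted p = 0.00383, limma) and had a change of -1.96 at 24 h that missed the threshold (adjusted p = 0.0553, limma). Before centring, the array medians lay between 6.81 and 6.97 at 48 h. At 24 h, 4 arrays had medians between 7.43 and 7.58, whereas replicate 1 at 300 mOsm/kg and replicate 3 at 640 mOsm/kg had 6.89 and 6.90.

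Most of the 44 genes did not pass the test for osmolality at either time. At 48 h 1 gene passed, Gstt1, which fell at 300 mOsm/kg. That is 2.27% of the members, beside 1.85% of all genes tested that passed limma's adjusted p of 0.05 in either direction. An unadjusted p under 0.05 (limma) was found for 8 of 44 members at 48 h, beside 1186 of 14506 genes. At 24 h 0 of 44 passed by limma, beside 0.655% of all genes. There 4 of 44 members had an unadjusted p under 0.05, beside 790 of 14506 genes. With limma's array weights 7 members passed at 24 h, and with them 11% of all genes did. Over the mean of both times 1 member, again Gstt1, passed, which is 2.27% beside 3.43% of all genes. In that mean 6 of 44 members had an unadjusted p under 0.05 (limma), beside 1650 of 14506 genes. At 300 mOsm/kg, 21 members were higher and 23 lower at 48 h (median log2 change -0.01, against 0.02 for all genes). At 24 h, 27 were higher and 17 lower (median 0.08, against -0.04 for all genes). The sign of the change was the same on 5 ways of scaling the arrays for 43 of 44 members at each time, the exceptions being Cbr1 at 48 h and Sod2 at 24 h, both with changes close to 0.

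Arrays were also compared one by one. At 48 h the 3 arrays at 300 mOsm/kg and the 3 at 640 mOsm/kg did not overlap for 9 members, or 20.5%, beside 14.8% of all genes. Mgst1, Ftl1 and Gsta4 were the 3 that stood higher at 300 mOsm/kg, and Nfe2l2, Ptgr1, Gsr, Gpx2, Gstt1 and Abcc1 the 6 that stood lower. At 24 h the arrays did not overlap for 4 members, or 9.09%, beside 8.56% of all genes. Ptgr1 and Gstp1 stood higher and Gpx2 and Gstt1 lower at 300 mOsm/kg.

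**Figure D1:**
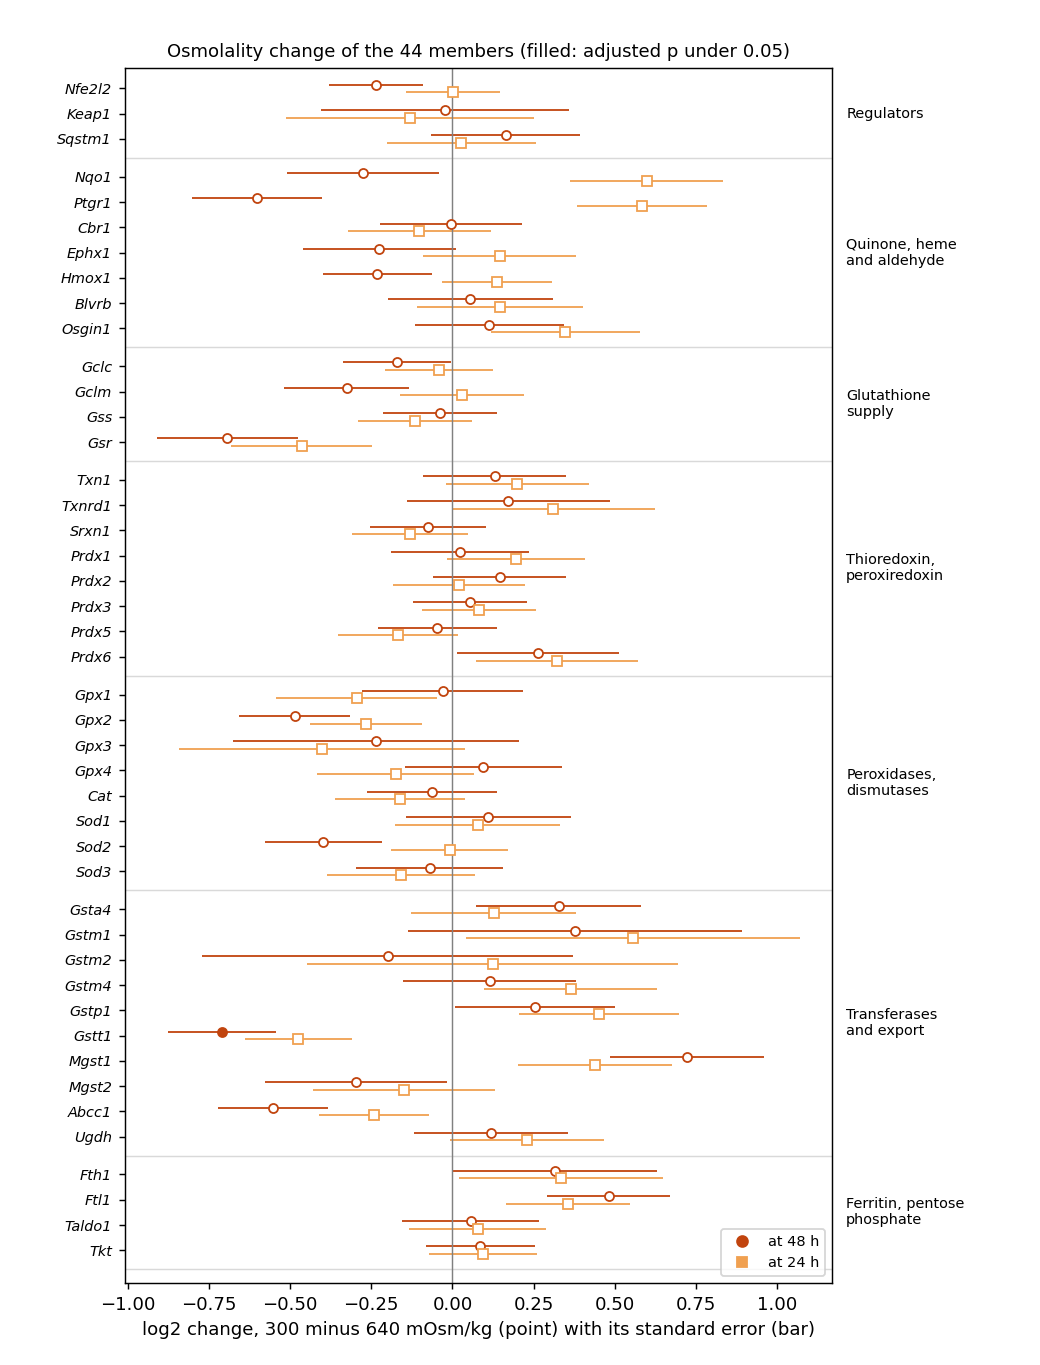
Log2 change (300 minus 640 mOsm/kg) of the 44 measured members, grouped by role, with circles for 48 h and squares for 24 h, 3 arrays a group. Bars are moderated standard errors, and the 1 filled symbol, Gstt1 at 48 h (-0.71), marks an adjusted p under 0.05 over all 14506 genes.

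Among the regulators, no change passed the test. Nfe2l2 stood at 3.97, 3.73 and 3.91 at 300 mOsm/kg and 48 h, against 4.11, 4.13 and 4.07 at 640 mOsm/kg and 48 h. The 3 arrays at 300 were below the 3 at 640, by a mean of 0.23 on the log2 scale with a standard error (SE) of 0.144 (adjusted p = 0.914, limma). At 24 h Nfe2l2 stood at 3.88, 3.89 and 3.78 at 300 mOsm/kg, against 3.74, 3.93 and 3.88 at 640 mOsm/kg. Those groups overlapped, with equal means of 3.85.

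Keap1, the cysteine-rich adaptor that targets Nrf2 for degradation, differed far more between replicates than between groups. It stood at 1.80, 0.75 and 1.39 at 300 mOsm/kg and 48 h, against 1.59, 0.65 and 1.76 at 640 mOsm/kg and 48 h. Its levels at 24 h were 1.71, 0.50 and 1.14 at 300 mOsm/kg, against 1.51, 0.52 and 1.71 at 640 mOsm/kg. Replicate 2 was the lowest array in each of the 4 groups, and the log2 changes with osmolality were -0.02 at 48 h and -0.13 at 24 h, with an SE of 0.382. Sqstm1, the autophagy adaptor p62 that competes for Keap1, had changes of 0.16 at 48 h and 0.03 at 24 h, with an SE of 0.23.

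Of the other genes around the Nrf2 switch (its Maf partners, Bach repressors, ligase subunits and modifiers), 18 of 20 listed were measured and 0 passed in either direction in any comparison by limma. The smallest p in the mean of both times belonged to Maff, a small Maf protein that pairs with Nrf2 on DNA. Its mean log2 change was -0.43 with an SE of 0.17 (unadjusted p = 0.0237, adjusted p = 0.283, limma).

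Nqo1, the quinone reductase that is the most used marker of Nrf2 activity, fell with time at 300 mOsm/kg and did not pass for osmolality. At 300 mOsm/kg it stood at 1.24, 1.15 and 1.81 at 48 h, against 2.72, 2.36 and 3.03 at 24 h. All 3 later arrays lay below all 3 earlier ones, and the mean fell by 1.30 on the log2 scale with an SE of 0.235 (2.47-fold lower, adjusted p = 0.0336, limma). At 640 mOsm/kg Nqo1 stood at 1.84, 1.50 and 1.69 at 48 h, against 2.46, 1.72 and 2.14 at 24 h. These arrays overlapped, and the change of -0.43 had an adjusted p of 0.854 (limma). For osmolality the change was -0.28 at 48 h and 0.60 at 24 h, both with an SE of 0.235 and adjusted p of 0.999 and 0.645 (limma), and the arrays overlapped at both times.

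The call of Nqo1 with time rested on the scale and on single arrays. On the deposited, uncentred values the fall was larger, 1.73, but the adjusted p was 0.0607. The call was lost without replicate 1 or 2 at 300 mOsm/kg and 48 h, replicate 1 or 3 at 300 mOsm/kg and 24 h, or replicate 1 or 3 at 640 mOsm/kg and 48 h, with an adjusted p of up to 0.219 (limma) and a change between -1.73 and -1.14 over all settings.

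Ptgr1, the prostaglandin reductase that removes reactive alkenals, had the largest time change among the members at 300 mOsm/kg. There it stood at 2.31, 2.80 and 2.41 at 48 h, against 3.84, 4.21 and 4.01 at 24 h. The groups lay more than 1 log2 unit apart, and the mean fell by 1.51 with an SE of 0.201 (2.86-fold lower, adjusted p = 0.00395, limma). On the deposited values the adjusted p was 0.0607. It passed in the 22 other alternatives.

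At 640 mOsm/kg Ptgr1 stood at 2.92, 3.47 and 2.93 at 48 h, against 3.56, 3.55 and 3.20 at 24 h. These arrays overlapped, with a change of -0.33 (adjusted p = 0.891, limma). Set by osmolality, the arrays at 300 mOsm/kg lay below all those at 640 mOsm/kg at 48 h (change -0.60, SE 0.201, adjusted p = 0.23, limma) and above all of them at 24 h (change 0.58, SE 0.201, adjusted p = 0.439, limma). The difference between these changes, 48 h minus 24 h, was -1.19 with an SE of 0.284, an unadjusted p of 0.0008 and an adjusted p of 0.802 over all genes (limma). It is built from the same 12 arrays as the separate comparisons. For this difference 0 of 44 members passed by limma, beside 0.0276% of all genes. An unadjusted p under 0.05 was found for 2 of 44, Ptgr1 and Nqo1, beside 131 of 14506 genes.

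**Figure D2:**
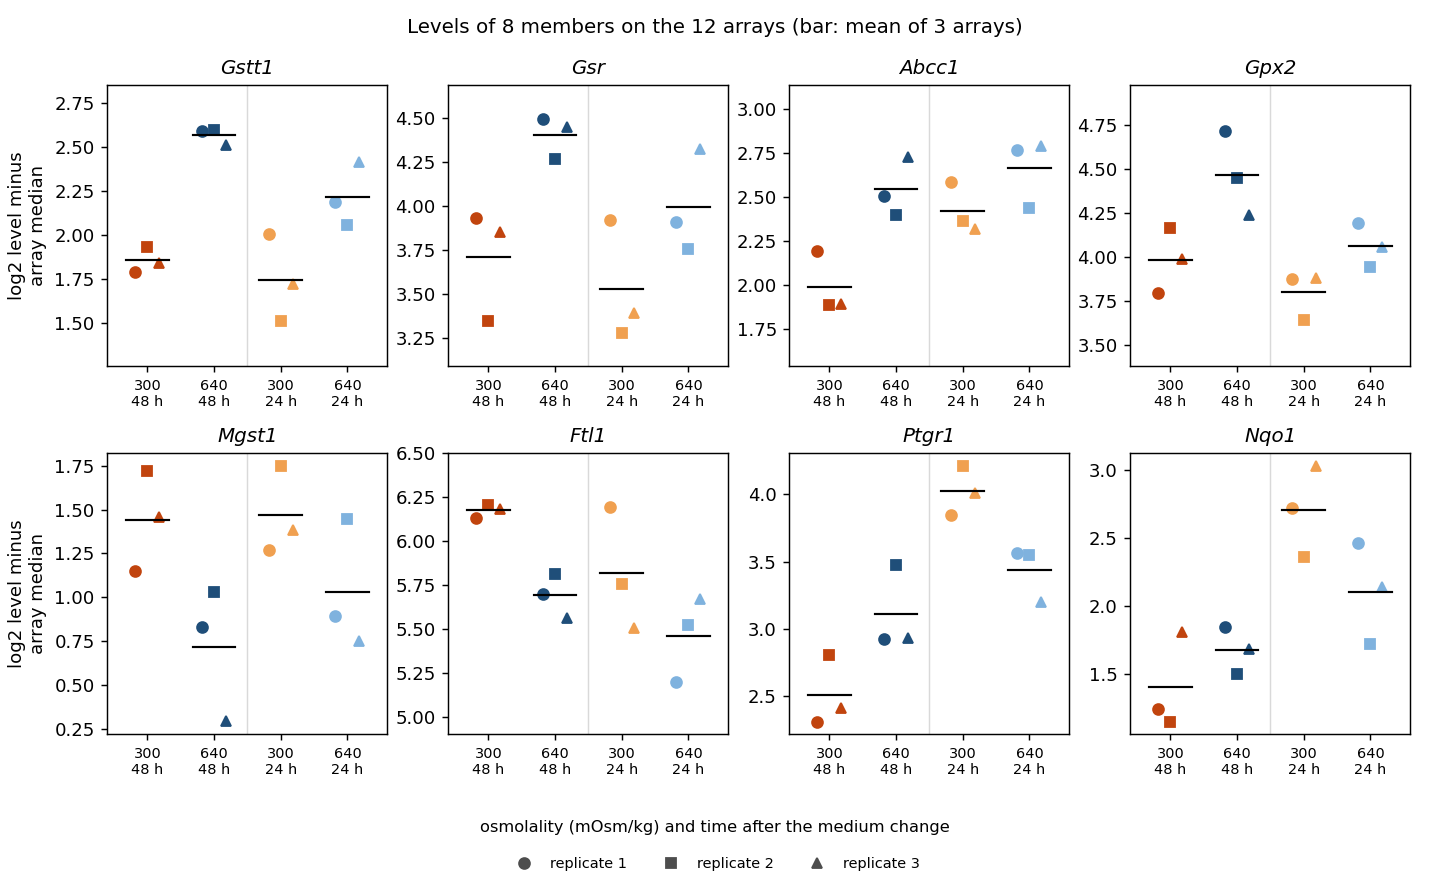
Level (log2 minus the array median) of 8 members on each of the 12 arrays, at 300 mOsm/kg left of 640 mOsm/kg and at 48 h left of 24 h, with symbols for replicates and a bar for the mean of 3 arrays. Ptgr1 at 300 mOsm/kg lies below 640 mOsm/kg at 48 h and above it at 24 h, Nqo1 is highest at 300 mOsm/kg and 24 h, and Gstt1 is lower at 300 mOsm/kg at both times.

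The remaining enzymes for quinones, aldehydes, epoxides and heme showed no change that passed. Hmox1, the inducible heme oxygenase, averaged 1.83 ± 0.158 at 300 mOsm/kg and 48 h, against 2.06 ± 0.188 at 640 mOsm/kg and 48 h (SD, n = 3 each). Its mean at 24 h was 2.03 ± 0.177 at 300 mOsm/kg, against 1.89 ± 0.143 at 640 mOsm/kg. Its groups overlapped at both times. Ephx1, the microsomal epoxide hydrolase, had changes with osmolality of -0.23 at 48 h and 0.15 at 24 h. Cbr1, a carbonyl reductase, had a change of -0.00 at 48 h, and its second probe set gave 0.03. Blvrb, a biliverdin reductase, had changes of 0.06 at 48 h and 0.15 at 24 h, below its SE of 0.255. Osgin1, an oxidative stress induced growth inhibitor, had changes of 0.11 and 0.35 at 48 h and 24 h, with an SE of 0.229.

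The glutathione group consisted of both subunits of glutamate-cysteine ligase, glutathione synthetase and glutathione reductase. Gsr, the reductase that returns oxidised glutathione to its reduced form, stood lower at 300 mOsm/kg without passing. It stood at 3.93, 3.35 and 3.85 at 300 mOsm/kg and 48 h, against 4.50, 4.27 and 4.45 at 640 mOsm/kg and 48 h. All 3 arrays at 300 lay below all 3 at 640 (change -0.69, SE 0.217, adjusted p = 0.182, limma). At 24 h it stood at 3.92, 3.28 and 3.39 at 300 mOsm/kg, against 3.91, 3.75 and 4.32 at 640 mOsm/kg, and these overlapped (change -0.46, adjusted p = 0.912, limma). Averaged over both times the change was -0.58 with an SE of 0.153, just outside the threshold (adjusted p = 0.0534, limma). It passed in 10 of 22 alternatives.

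Gclc, the catalytic subunit that sets the rate of glutathione synthesis, had changes with osmolality of -0.17 at 48 h and -0.04 at 24 h, with an SE of 0.166. Gclm, the modifier subunit, had changes of -0.33 at 48 h and 0.03 at 24 h, with an SE of 0.192. Gss, the synthetase of the last step, had -0.04 and -0.12 at the same times. Over time at 300 mOsm/kg, Gclc stood at 1.77, 1.53 and 1.42 at 48 h, against 1.78, 2.00 and 2.02 at 24 h. The groups touched without overlapping, and the change of -0.36 did not pass (adjusted p = 0.652, limma).

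A wider list of glutathione supply and breakdown held 21 genes, of which 20 were measured. Slc7a11, the cystine carrier that feeds glutathione synthesis and is itself a known Nrf2 target, was the 1 gene of the list that passed for osmolality. It averaged 1.53 ± 0.228 at 300 mOsm/kg and 24 h, against 0.54 ± 0.0437 at 640 mOsm/kg and 24 h (SD, n = 3 each), and rose by 0.99 with an SE of 0.196 (adjusted p = 0.0326, limma). At 48 h it averaged 0.73 ± 0.208 at 300 mOsm/kg, against 0.08 ± 0.354 at 640 mOsm/kg, a change of 0.65 that did not pass (adjusted p = 0.156, limma). The call at 24 h was lost on the deposited values (adjusted p = 0.704, limma), with only the groups compared, with centring on all probe sets, and without replicate 2 or 3 at 300 mOsm/kg or any 1 replicate at 640 mOsm/kg, all at 24 h. Averaged over both times Slc7a11 rose by 0.82 (adjusted p = 0.00248, limma) and passed in 21 of 22 alternatives, the deposited scale being the exception.

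No member of the thioredoxin and peroxiredoxin group passed for osmolality or time. Txn1, the small dithiol protein that reduces peroxiredoxins, had changes with osmolality of 0.13 at 48 h and 0.20 at 24 h, with an SE of 0.22. Txnrd1, the selenoprotein that reduces thioredoxin, had 0.17 and 0.31 with an SE of 0.312. Srxn1, sulfiredoxin, which repairs overoxidised peroxiredoxins, had -0.08 and -0.13. The peroxiredoxins Prdx1, Prdx2, Prdx3, Prdx5 and Prdx6, which reduce hydrogen peroxide, had changes with osmolality between -0.17 (Prdx5 at 24 h) and 0.32 (Prdx6 at 24 h).

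With time the 5 peroxiredoxins stood higher at 48 h than at 24 h at both osmolalities on centred arrays, by 0.26 (Prdx5 at 640 mOsm/kg) to 0.58 (Prdx1 at 640 mOsm/kg), and none passed. On the deposited values only Prdx1 at 640 mOsm/kg (0.17) and Prdx2 at 300 mOsm/kg (0.05) remained above 0, and that scale moved the median of all genes by -0.38 at 300 mOsm/kg and -0.41 at 640 mOsm/kg. Prdx3 at 640 mOsm/kg stood at 3.84, 4.16 and 3.86 at 48 h, against 3.48, 3.45 and 3.81 at 24 h. Those arrays did not overlap (change 0.38, adjusted p = 0.76, limma). Of the other thioredoxin, glutaredoxin and methionine sulfoxide reductase genes, 18 of 21 were measured and 0 passed in any comparison by limma. The smallest p in the mean of both times was that of Prdx4, the peroxiredoxin of the endoplasmic reticulum, with a change of 0.47 and an SE of 0.172 (unadjusted p = 0.0146, adjusted p = 0.207, limma).

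Among the peroxidases and dismutases, Gpx2, the glutathione peroxidase typical of epithelia of the gut, stood lower at 300 mOsm/kg at both times without passing. It stood at 3.79, 4.16 and 3.98 at 300 mOsm/kg and 48 h, against 4.71, 4.45 and 4.24 at 640 mOsm/kg and 48 h. At 24 h it stood at 3.88, 3.64 and 3.88 at 300 mOsm/kg, against 4.19, 3.94 and 4.06 at 640 mOsm/kg. The arrays did not overlap at either time, and the mean change over both was -0.38 with an SE of 0.121 (adjusted p = 0.134, limma).

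Gpx1, the cytosolic glutathione peroxidase, had changes with osmolality of -0.03 at 48 h and -0.30 at 24 h, with an SE of 0.249. Gpx3, the secreted form, had -0.23 and -0.40, with an SE of 0.44. Gpx4, which reduces lipid hydroperoxides, had 0.10 and -0.17. Cat, the catalase of peroxisomes, had -0.06 and -0.16, Sod1, the cytosolic dismutase, 0.11 and 0.08, and Sod3, the extracellular one, -0.07 and -0.16. Sod2, the dismutase of mitochondria, averaged 3.16 ± 0.203 at 300 mOsm/kg and 48 h, against 3.56 ± 0.301 at 640 mOsm/kg and 48 h (SD, n = 3 each). One array at 300, at 3.36, exceeded 1 at 640, at 3.28, so that these groups overlapped (change -0.40, SE 0.18, adjusted p = 0.57, limma).

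Gstt1, a theta class glutathione transferase, was the 1 member that fell at 300 mOsm/kg. It stood at 1.79, 1.93 and 1.84 at 300 mOsm/kg and 48 h, against 2.59, 2.60 and 2.51 at 640 mOsm/kg and 48 h. The groups were tight and far apart, and the mean fell by 0.71 with an SE of 0.166 (1.64-fold lower, adjusted p = 0.0398, limma). At 24 h Gstt1 stood at 2.01, 1.51 and 1.72 at 300 mOsm/kg, against 2.19, 2.05 and 2.41 at 640 mOsm/kg. All 3 arrays were again lower, by a mean of 0.47 on the log2 scale, but the change did not pass (adjusted p = 0.465, limma). In the mean of both times Gstt1 fell by 0.59 with an SE of 0.117 (adjusted p = 0.00816, limma), and it passed in all 22 alternatives run for that mean.

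At 48 h alone the call of Gstt1 was close to the threshold. On the deposited values the adjusted p was 0.117. It was also lost without any 1 of the 6 arrays at 48 h, without replicate 1 at 640 mOsm/kg and 24 h, or without replicate 3 at 300 mOsm/kg and 24 h, with an adjusted p of up to 0.161 (limma). The change itself stayed between -0.75 and -0.68 over all settings.

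Mgst1, the membrane-bound transferase of the endoplasmic reticulum and mitochondria, stood the other way. It stood at 1.15, 1.72 and 1.46 at 300 mOsm/kg and 48 h, against 0.83, 1.03 and 0.30 at 640 mOsm/kg and 48 h. These arrays did not overlap (change 0.72, SE 0.237, adjusted p = 0.219, limma). Mgst1 at 24 h stood at 1.27, 1.75 and 1.38 at 300 mOsm/kg, against 0.89, 1.44 and 0.75 at 640 mOsm/kg. There the groups overlapped, and the mean change over both times, 0.58 with an SE of 0.168, did not pass (adjusted p = 0.0833, limma).

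Abcc1, the exporter of glutathione conjugates known as MRP1, stood at 2.20, 1.89 and 1.89 at 300 mOsm/kg and 48 h, against 2.51, 2.40 and 2.73 at 640 mOsm/kg and 48 h. The 3 arrays at 300 lay lower, with a change of -0.55 and an SE of 0.17 (adjusted p = 0.17, limma). At 24 h the change was -0.24, and its arrays overlapped. In the mean of both times it was -0.40 (adjusted p = 0.103, limma).

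Gstp1, the pi class transferase, stood at 4.33, 3.89 and 4.11 at 300 mOsm/kg and 24 h, against 3.57, 3.76 and 3.65 at 640 mOsm/kg and 24 h. The arrays did not overlap, and the change of 0.45 with an SE of 0.247 did not pass, its adjusted p rounding to 1 (limma). At 48 h the change was 0.25 and the arrays overlapped. Gsta4, the alpha class transferase for 4-hydroxynonenal, had a change with osmolality of 0.33 at 48 h and 0.13 at 24 h, with an SE of 0.254. Its second probe set gave 0.26 and 0.20.

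Ugdh, which makes the sugar donor for glucuronidation, had changes of 0.12 and 0.23 at 48 h and 24 h. Mgst2, another membrane-bound transferase, had -0.30 and -0.15. The mu class transferases Gstm1, Gstm2 and Gstm4 had changes between -0.20 (Gstm2 at 48 h) and 0.56 (Gstm1 at 24 h), with SE of 0.266 to 0.57. Genes of the transferase families are close in sequence, and how far their probe sets take up each other's RNA is not known here.

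A further list of conjugating enzymes and exporters held 37 genes, of which 30 were measured. At 48 h 1 rose and 4 fell, at 24 h 1 rose and 3 fell, and in the mean of both times 4 rose and 5 fell. Over all genes 1.85%, 0.655% and 3.43% passed in these comparisons in either direction. Akr7a3, an aldehyde reductase, averaged 2.04 ± 0.127 at 300 mOsm/kg and 48 h, against 4.06 ± 0.193 at 640 mOsm/kg and 48 h (SD, n = 3 each). It fell by 2.02 at 48 h (adjusted p = 3.3e-05, limma) and by 1.32 at 24 h (adjusted p = 0.00619, limma).

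The exporters Abcc4 and Abcc5 fell at both times on centred arrays, Abcc4 by 1.70 at 48 h and 0.99 at 24 h and Abcc5 by 1.24 at 48 h and 1.00 at 24 h. Akr1b8, an aldo-keto reductase, fell by 1.14 at 48 h (adjusted p = 0.00804, limma). Aldh1a1, the retinaldehyde dehydrogenase, rose by 0.90 at 48 h (adjusted p = 0.00314, limma), and Gsta1, an alpha class transferase, rose by 1.16 at 24 h (adjusted p = 0.0276, limma). In the mean of both times Gsta3 rose by 0.81 and Abcg2, an exporter of urate and drugs, by 0.66, and Sult1a1, a sulfotransferase, fell by 0.61. Both directions occurred among the exporters of this list. At 48 h, Akr7a3 and Abcc4 passed in all 23 alternatives, Abcc5 and Aldh1a1 in all but the deposited scale, and Akr1b8 in 19, being lost on that scale, without replicate 1 or 3 at 300 mOsm/kg or without replicate 1 at 640 mOsm/kg. At 24 h, Akr7a3 passed in 20, Gsta1 and Abcc4 in 16 and Abcc5 in 9 of 23, and all 4 were lost on the deposited values and with only the groups compared. Leaving out replicate 3 at 300 mOsm/kg or replicate 1 or 3 at 640 mOsm/kg, all at 24 h, ended the calls of Gsta1, Abcc4 and Abcc5 there. Of the means over both times, Abcg2 passed in 20 and Sult1a1 in 10 of 22 alternatives and Gsta3 in 18 of 21.

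The ferritin chains are textbook Nrf2 targets that store iron. Ftl1, the light chain, stood at 6.13, 6.20 and 6.19 at 300 mOsm/kg and 48 h, against 5.70, 5.82 and 5.57 at 640 mOsm/kg and 48 h. All 3 arrays at 300 were higher (change 0.48, SE 0.19, adjusted p = 0.396, limma). Ftl1 at 24 h stood at 6.19, 5.76 and 5.50 at 300 mOsm/kg, against 5.20, 5.52 and 5.67 at 640 mOsm/kg, and these overlapped. The mean change over both times was 0.42 (adjusted p = 0.129, limma). Ftl1 had 6 probe sets, all with positive changes at 48 h, from 0.48 to 0.60, and processed copies of ferritin genes are common in mammalian genomes.

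Fth1, the heavy chain, had changes of 0.32 at 48 h and 0.33 at 24 h, with an SE of 0.313. Of the heme and iron list, all 15 genes were measured. Slc40a1, the iron exporter ferroportin, was the 1 that passed, and only in the mean of both times, in which it rose by 0.57 with an SE of 0.137 (adjusted p = 0.032, limma). It passed in 13 of 22 alternatives and was lost on the deposited values (adjusted p = 0.383, limma) and without any 1 of 7 single arrays.

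Taldo1 and Tkt, the transaldolase and transketolase of the pentose phosphate pathway, had changes with osmolality between 0.06 and 0.09 at both times. Of 14 listed genes for NADPH supply, 12 were measured. Me1, the cytosolic malic enzyme, was the 1 that passed. It averaged 3.08 ± 0.137 at 300 mOsm/kg and 48 h, against 4.12 ± 0.153 at 640 mOsm/kg and 48 h (SD, n = 3 each), and fell by 1.04 (adjusted p = 0.0016, limma). At 24 h its change of -0.53 did not pass (adjusted p = 0.247, limma). Of the sources of reactive oxygen species, 16 of 18 were measured and Xdh, xanthine dehydrogenase, fell by 1.06 at 48 h (adjusted p = 0.00457, limma). At 24 h the change of Xdh, -0.26, did not pass (unadjusted p = 0.173, limma). In the mean of both times Xdh fell by 0.66 (adjusted p = 0.00726, limma). Over all genes 1.85% passed at 48 h and 3.43% in that mean, in either direction.

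Time was tested within each osmolality. At 300 mOsm/kg 2 of 44 members passed between 48 h and 24 h, Ptgr1 and Nqo1, both falls, which is 4.55% beside 0.255% of all genes. An unadjusted p under 0.05 (limma) was found for 7 of 44 members there, beside 1106 of 14506 genes. At 640 mOsm/kg 0 of 44 passed by limma, beside 0.138% of all genes. There 6 of 44 had an unadjusted p under 0.05, beside 954 of 14506 genes. With limma's array weights 6 passed at 640 mOsm/kg, beside 6.8% of all genes in that fit. Arrays did not overlap for 7 members at 300 mOsm/kg, or 15.9%, beside 12.1% of all genes, and for 9 at 640 mOsm/kg, or 20.5%, beside 9.58% of all genes. The comparisons at each osmolality share their arrays with the osmolality comparisons above.

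On centred arrays 29 members were higher at 48 h than at 24 h at 300 mOsm/kg (median 0.16, against 0.05 for all genes) and 34 at 640 mOsm/kg (median 0.18, against 0.00 for all genes). On the deposited values the counts were 4 and 6. With quantile normalization they were 22 and 30 (medians 0.01 and 0.09, against 0.0006 and -0.01 for all genes). With cyclic loess they were 24 and 30 (medians 0.02 and 0.10, against -0.004 and -0.003 for all genes). The excess of higher members at 300 mOsm/kg thus depended on the scale. On all 5 scales 19 and 16 members kept their sign. Gsta4 and Sod3 were higher at 48 h at both osmolalities on each scale, by 0.72 and 0.57 at 300 mOsm/kg on centred arrays. Abcc1, Cat, Gclc, Txnrd1, Ephx1, Mgst1, Mgst2 and Blvrb were lower at both on each scale, as were Nqo1 and Ptgr1. Of these 12 genes only Nqo1 and Ptgr1 passed, at 300 mOsm/kg.

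**Figure D3:**
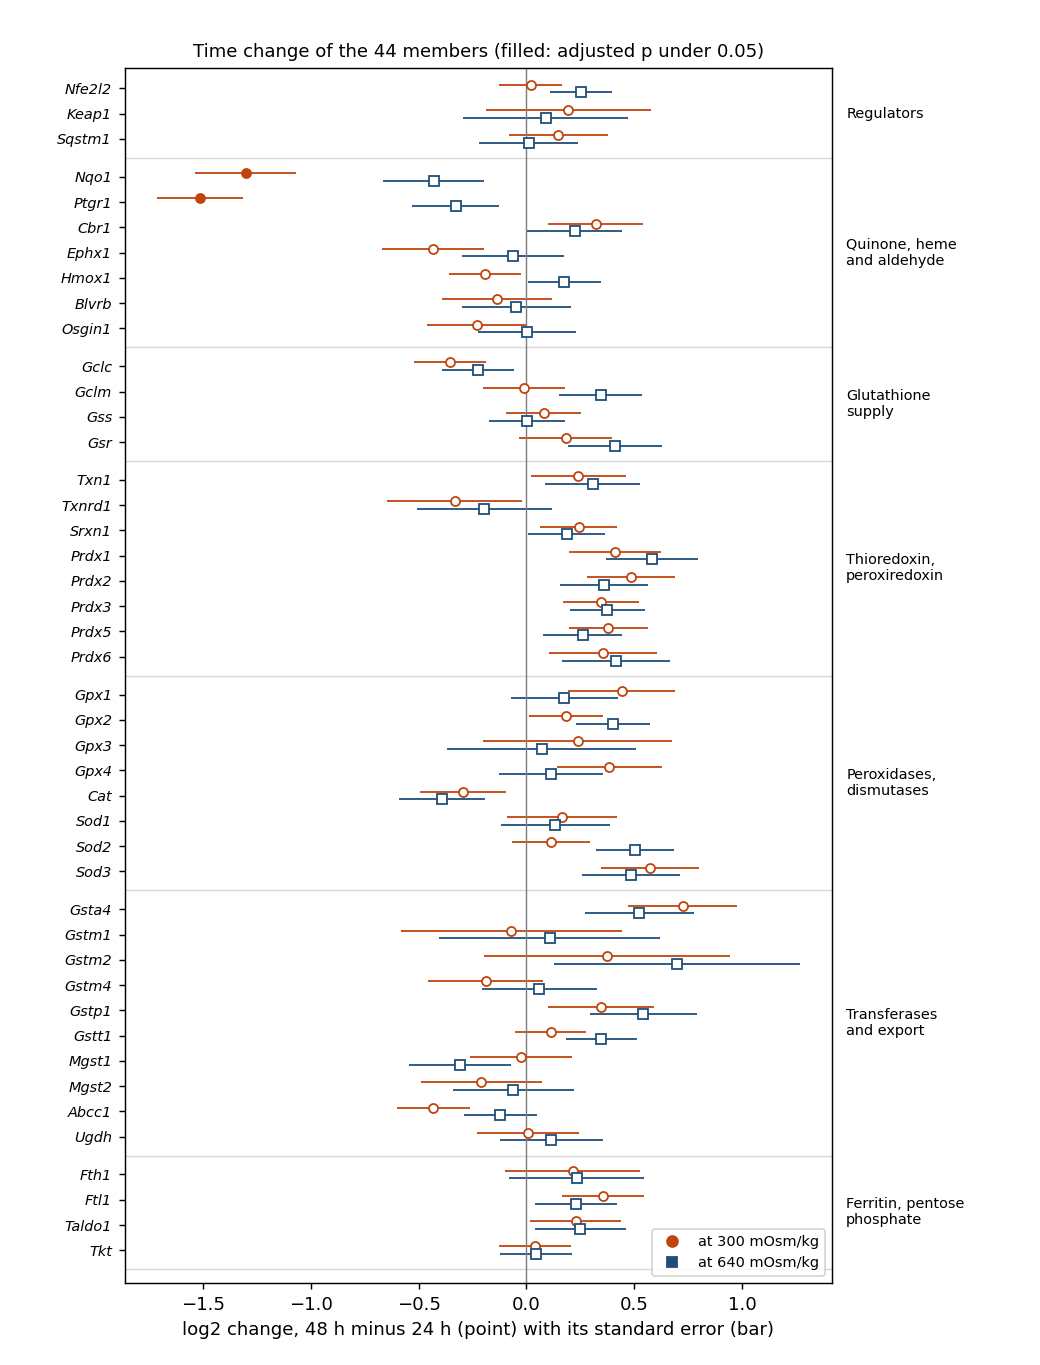
Log2 change (48 h minus 24 h) of the 44 measured members, grouped by role, with circles for 300 mOsm/kg and squares for 640 mOsm/kg, 3 arrays a group and moderated standard errors as bars. The 2 filled symbols are Ptgr1 (-1.51) and Nqo1 (-1.30) at 300 mOsm/kg.

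Markers of several cell types moved with time on centred arrays. Of the 20 markers of IMCD and principal cells, 13 were higher at 48 h than at 24 h at 300 mOsm/kg and 17 at 640 mOsm/kg (median changes 0.18 and 0.23). Of the 9 intercalated markers, 8 and 7 were higher (median changes 0.17 and 0.26). Over all genes 58.6% and 50.3% were higher. By limma 0 of these IMCD, principal and intercalated markers passed. The 10 fibroblast markers were all higher at 48 h than at 24 h at both osmolalities. Their mean level was 0.505 to 0.783 at 300 mOsm/kg and 48 h, against -0.414 to -0.178 at 300 mOsm/kg and 24 h. At 640 mOsm/kg it was 0.339 to 0.508 at 48 h, against -0.644 to -0.268 at 24 h. Col1a1, a collagen chain, rose by 1.07 at 300 mOsm/kg (adjusted p = 0.0336, limma) and by 1.13 at 640 mOsm/kg (adjusted p = 0.0387, limma), and Pdgfrb and Dcn also rose at both. On the deposited values 0 of 14506 genes were called with time at either osmolality by limma, with 3369 at 300 mOsm/kg and 4077 at 640 mOsm/kg at an unadjusted p under 0.05. Of 16 macrophage and leukocyte markers 15 were higher at 48 h at each osmolality. Their mean level was -0.619 to -0.245 at 300 mOsm/kg and 48 h, against -1.09 to -0.925 at 300 mOsm/kg and 24 h. The part of these cells in the falls of Nqo1 and Ptgr1 was not tested.

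Of 20 markers of IMCD and principal cells, all were measured and their mean level lay above the array median in every sample. Single markers lay below it in all 4 groups, such as Hsd11b2, Scnn1a, Scnn1b and Scnn1g. Means over markers compare samples and do not measure the share of a cell type. The mean over these markers was 2.04 to 2.19 at 300 mOsm/kg and 48 h, against 2.63 to 2.75 at 640 mOsm/kg and 48 h. At 24 h it was 1.88 to 2.03 at 300 mOsm/kg, against 2.29 to 2.50 at 640 mOsm/kg. Of these markers 4 fell at 48 h (Aqp2, Aqp3, Avpr2 and Slc14a2) and 2 at 24 h (Aqp2 and Avpr2). Over all genes 1.85% and 0.655% passed at these times in either direction. Singly, 9 of the 20 markers were higher and 11 lower at 300 mOsm/kg at 48 h (median change -0.08). At 24 h 6 were higher and 14 lower (median change -0.13). The 9 of 10 endothelial markers that were measured were all lower at 300 mOsm/kg at 48 h, with a mean level of -0.634 to -0.414 against -0.226 to 0.011 at 640 mOsm/kg. The part of these cells in the fall of Gstt1 was not tested.

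Mean levels of the 9 intercalated, 15 proximal tubule and 9 measured thick limb and distal markers lay below the array median on all 12 arrays. Single markers of these lists lay above it in all 4 groups, such as Kit, Aqp1 and Bst1. The means of tubule and limb markers also differed with osmolality at 48 h. Thick limb markers were at -1.58 to -1.40 at 300 mOsm/kg and 48 h, against -1.24 to -0.989 at 640 mOsm/kg and 48 h. Proximal tubule markers were at -1.79 to -1.78 at 300 mOsm/kg and 48 h, against -1.63 to -1.50 at 640 mOsm/kg and 48 h. In neither did the groups overlap, whereas intercalated markers overlapped, at -1.63 to -1.54 against -1.60 to -1.34. Singly, 9 of the 15 proximal tubule markers were higher and 6 lower at 300 mOsm/kg at 48 h (median change 0.05). Of the 9 thick limb and distal markers, 2 were higher and 7 lower (median change -0.22). Single markers that fell at 300 mOsm/kg at 48 h were Aqp1 (by 2.48), Kap (by 1.29), the salt carrier Slc12a1 (by 1.17), the ammonia channel Rhbg (by 1.03), the endothelial Emcn (by 1.32) and the macrophage receptor Csf1r (by 0.69). The fibroblast markers Postn and Fbln1 rose, by 1.22 and 0.85. These single genes do not stand for their lists. Of the 16 macrophage and leukocyte markers, 6 were higher and 10 lower at 300 mOsm/kg at 48 h (median change -0.22). Among them C1qa had a change of 0.73 (adjusted p = 0.0639, limma). Of the 10 fibroblast markers, 6 were higher and 4 lower (median change 0.18). Of the 9 intercalated markers, 5 were higher and 4 lower (median change 0.03). Aqp1 passed in all 23 alternatives and Postn in all 22, Slc12a1 and Kap in 21 of 23 and 21 of 22, Rhbg in 18, Csf1r in 16 and Emcn and Fbln1 in 15 of 23. The part of these cells in the fall of Gstt1 was not tested either.

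Spread between replicates was compared with that of all genes. The median SD within groups was 0.297 for the members, against 0.25 for all genes. Gstm2 (0.923), Gstm1 (0.825), Gpx3 (0.697) and Keap1 (0.595) had the widest. Replicate 2 was the lowest array in all 4 groups for 6 members (Keap1, Nqo1, Gsr, Txnrd1, Fth1 and Ugdh), where 15.6% of all genes had that pattern. It was the highest in all 4 groups for 5 members (Gpx3, Gstm1, Gstm2, Mgst1 and Ephx1), beside 9.05% of all genes. For replicates 1 and 3 the count was 0 of 44 in both directions.

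Gstm1 stood at 1.13, 2.71 and 2.32 at 300 mOsm/kg and 48 h, against 1.92, 2.45 and 0.66 at 640 mOsm/kg and 48 h. At 24 h it stood at 1.34, 2.80 and 2.23 at 300 mOsm/kg, against 1.55, 2.39 and 0.77 at 640 mOsm/kg. The lowest array was replicate 1 at 300 mOsm/kg and replicate 3 at 640 mOsm/kg, at both times. The range over the 12 arrays was 2.14, and the 3 arrays of each group spanned most of it.

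**Figure D4:**
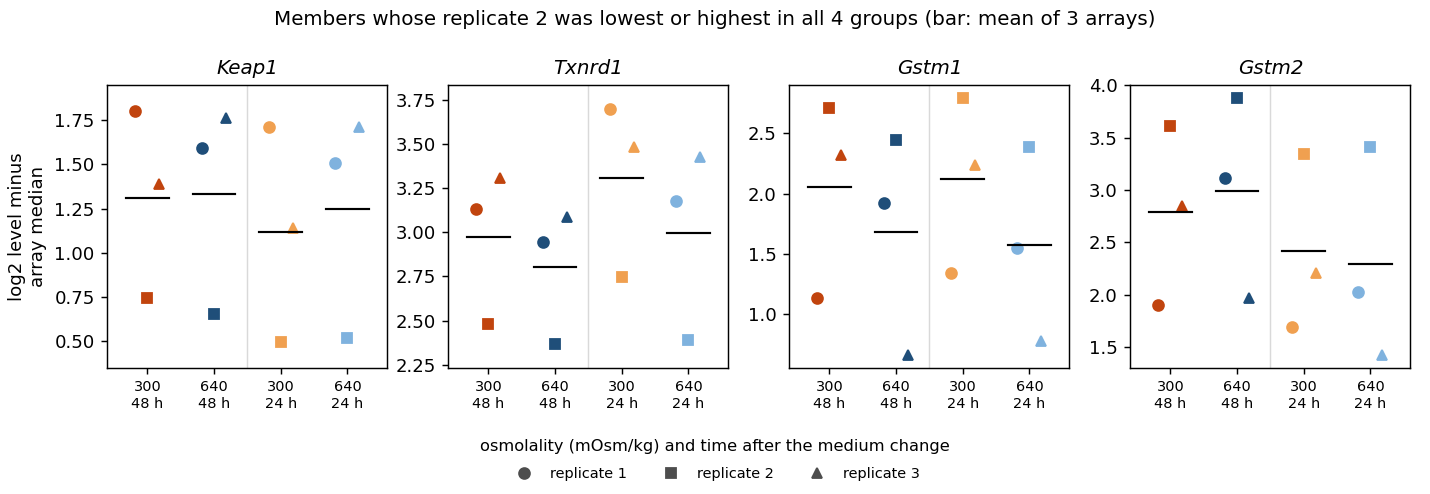
Level (log2 minus the array median) of Keap1, Txnrd1, Gstm1 and Gstm2 on each of the 12 arrays, at 300 mOsm/kg left of 640 mOsm/kg and at 48 h left of 24 h, with a bar for the mean of 3 arrays. Replicate 2 (squares) is the lowest array of each group for Keap1 and Txnrd1 and the highest for Gstm1 and Gstm2.

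Promoter sequence came from a table of RefSeq windows on the rat assembly GRCr8, from 250 bases before to 50 bases after the gene start. Windows of 35 of the 44 members were used. Those of Ptgr1, Gstt1, Gsr, Hmox1, Fth1, Ftl1, Sod3, Mgst2 and Prdx6 were not analysed here. The core of the antioxidant response element was searched on both strands as TGACNNNGC, where N is any base. The AP-1 core TGACTCA was searched as well, since it can overlap the antioxidant core. The antioxidant core was in the windows of 10 of 35 members (28.6%), beside 13.1% of 27457 genes, and the AP-1 core in 4 of 35 (11.4%), beside 5.04%. The 10 were Ephx1, Gclm, Gpx2, Gstp1, Nfe2l2, Prdx1, Prdx5, Sod2, Txnrd1 and Ugdh. None of these passed in any comparison. Of the 35 members with a window only Nqo1 did, so that no link between core and change can be read from this.

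Shown here are 1 window without the core, that of Nqo1, because it fell with time, and 3 with it, from glutathione synthesis, conjugation and peroxide reduction. Capitals mark the core as it reads on the strand of the gene. The windows are chr19:52220218-52220517 on the minus strand for Nqo1, chr2:213031885-213032184 on the plus strand for Gclm, chr1:210769656-210769955 on the minus strand for Gstp1 and chr5:135383656-135383955 on the plus strand for Prdx1.
Nqo1: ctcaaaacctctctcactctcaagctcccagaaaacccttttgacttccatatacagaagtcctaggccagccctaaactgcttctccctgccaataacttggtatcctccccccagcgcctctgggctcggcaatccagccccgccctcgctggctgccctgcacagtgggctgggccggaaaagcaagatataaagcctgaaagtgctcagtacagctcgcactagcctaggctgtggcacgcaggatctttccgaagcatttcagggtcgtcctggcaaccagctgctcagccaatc
Gclm: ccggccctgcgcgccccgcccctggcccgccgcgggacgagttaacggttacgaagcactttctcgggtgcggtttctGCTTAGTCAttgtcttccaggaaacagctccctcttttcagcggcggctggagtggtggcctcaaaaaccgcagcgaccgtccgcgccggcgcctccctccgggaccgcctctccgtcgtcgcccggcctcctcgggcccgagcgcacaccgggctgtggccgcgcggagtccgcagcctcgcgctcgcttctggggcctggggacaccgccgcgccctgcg
Gstp1: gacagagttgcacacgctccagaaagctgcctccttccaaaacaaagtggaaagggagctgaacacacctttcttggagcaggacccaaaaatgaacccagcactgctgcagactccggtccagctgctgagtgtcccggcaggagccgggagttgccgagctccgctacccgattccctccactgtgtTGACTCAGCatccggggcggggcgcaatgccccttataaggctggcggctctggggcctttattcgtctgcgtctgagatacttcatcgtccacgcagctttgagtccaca
Prdx1: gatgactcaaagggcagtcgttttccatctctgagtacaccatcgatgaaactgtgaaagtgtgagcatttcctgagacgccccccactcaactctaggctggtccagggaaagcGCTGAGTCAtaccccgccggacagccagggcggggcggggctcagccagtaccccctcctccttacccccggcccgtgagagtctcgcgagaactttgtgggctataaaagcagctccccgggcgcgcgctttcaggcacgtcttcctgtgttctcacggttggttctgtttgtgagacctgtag
Counted from the gene start, the first base of the core is at position -172 in Gclm, where it reads on the opposite strand and does not overlap an AP-1 core. It is at -61 in Gstp1 and at -135 in Prdx1, and in both it overlaps an AP-1 core. The window of Nqo1 does not hold these letters, and what lies further upstream was not searched. A match is a description of the letters and not a bound site.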

How the data were processed

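The authors deposited 1 table of log2 values per probe set and array, made with RMA in Affymetrix Power Tools per the submitters' processing notes, whose versions are not stated there. Nor do the sources used here say which arrays were processed together. The table has no detection calls, so the lower limit of detection is unknown and precision rests on 3 arrays per group. Samples were grouped by their titles. The short codes in some descriptions name other osmolalities, and the titles, treatment labels and design text were followed.

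Of 27596 probe sets, 15310 had 1 gene symbol in the platform's table, 323 had several and 11963 were not listed. Entrez identifiers of 15279 matched RefSeq, 31 did not, and 0 symbols were updated. Each gene was read from its brightest probe set by the mean of 12 arrays, giving 14506 genes, 527 with several probe sets (5 of them members: Cbr1, Fth1, Ftl1, Gsta4 and Prdx1).

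Each array was centred on its median over those genes. limma 3.58.1 in R 4.3.3 fitted 1 mean per group over all arrays with 8 residual degrees of freedom (lmFit, eBayes), with calls at 0.05 after Benjamini-Hochberg adjustment over all genes. The fit was tested on simulated data. Errors of changes are moderated standard errors. Same-numbered samples were not treated as pairs, since not every such pair deviated together.

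Members and lists were chosen with earlier results of these data known. All measured members are named. Of the 7 other pathway lists, genes called for osmolality are named and, in lists without one, the gene with the smallest p in the mean of both times, plus 3 checks of the labels. The markers, the members given on single arrays beyond those called and the Nrf2 regulators Nfe2l2 and Keap1, and the printed promoters, were chosen after their values were seen. Alternatives were the deposited scale, 3 other scales, a filter on dim genes, limma's array weights and its trend with robust settings, averaged probe sets, only the groups compared, a replicate block, and leaving out each array. Leaving out both arrays with low medians at 24 h was added after seeing the data.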

Additional observations from a re-analysis of the deposited data

Results flagged for a closer look

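Ptgr1 had changes of opposite sign with osmolality at the 2 times, neither of which passed (adjusted p = 0.23 at 48 h and 0.439 at 24 h, limma). Its 3 arrays at 300 mOsm/kg lay below all 3 at 640 mOsm/kg at 48 h and above all 3 at 24 h, and the difference of these log2 changes, 48 h minus 24 h, was -1.19. That difference had an adjusted p of 0.802 over all genes (limma), between 0.0956 and 1.0 over 22 alternatives, so it did not pass in any of them. Taken singly, arrays did not overlap for 14.8% of all genes at 48 h and for 8.56% at 24 h.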

How the results depend on the processing

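The number of members called depended on how the arrays were scaled and weighted. On the deposited, uncentred values 0 members were called at 48 h (Gstt1 lost) and 0 with time at 300 mOsm/kg (Nqo1 and Ptgr1 lost). With array weights the counts were 2 at 48 h, 7 at 24 h, 6 in the mean of both times, 11 with time at 300 mOsm/kg and 6 with time at 640 mOsm/kg, and calls rose over all genes too, to 3.44%, 11%, 10.1%, 13.1% and 6.8% of them. In the mean of both times, 2 were called with centring on all probe sets, cyclic loess, the filter on dim genes, trend with robust settings, or without the low-median pair at 24 h, and 3 with quantile normalization. In each of these Gsr joined Gstt1, and Ftl1 joined with quantile normalization. The replicate block gave 2 at 48 h (Gstt1 and, with an adjusted p of 0.0319, Mgst1) and 4 in the mean (Abcc1, Gsr, Gstt1 and Mgst1). It changed the count of members in no other comparison, while it raised the all-gene counts, to 403 at 48 h and 159 at 24 h. Between osmolalities, deviations from the group means correlated for number 2 (0.795 at 48 h, 0.844 at 24 h), while numbers 1 and 3 had -0.231 and -0.222 at 48 h and -0.125 and -0.206 at 24 h. Each of those 4 pairs correlated better crosswise: number 3 at 300 with number 1 at 640 mOsm/kg had 0.631 and 0.576, and number 1 at 300 with number 3 at 640 mOsm/kg had 0.78 and 0.825. Whether these numbers were exchanged is not known, and the osmolality errors and overlaps above take the samples as unpaired. Leaving out single arrays gave 0 to 1 at 48 h, 1 to 3 in the mean and 1 to 2 with time at 300 mOsm/kg, and 0 in the other comparisons. Prdx3 (-0.041) and Gpx2 (-0.015) with time at 640 mOsm/kg reversed on the deposited values. Over 104 results of single genes and 2346 alternatives, 2044 kept direction and side of the threshold, 270 lost and 30 gained the call, and 2 reversed. The 104 hold calls and also member results with only an unadjusted p under 0.05 (limma). For the latter, staying uncalled counted as kept, so the 2044 are not a measure of how stable the calls were. Over all genes at 24 h, centred arrays gave 40 rises and 55 falls (42.1% rises), against 2 and 11 (15.4%) on the deposited values. The causes of these changes were not tested. Fits on only the groups compared gave no value for the mean or the difference. With 3 arrays per group, a p that misses the threshold does not show that levels were equal.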
